A study of Mus musculus with 12 samples.

Results

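The genes described here encode the B7 family ligands and the checkpoint receptors through which antigen-presenting cells and tissue cells adjust T cell activation. They were chosen by name: Cd274, Pdcd1lg2, Cd80, Cd86, Icosl, Cd276, Lag3, Havcr2, Pdcd1 and Ctla4. All 10 of these genes were measured, among 19938 genes tested on the array. Each is represented by a probe set with a single gene symbol, and Cd80, which has 2, by the one with the higher mean over the arrays.

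The tissue was skin of female Balb/c mice, taken 1.5 h, 6 h or 24 h after an intradermal dose of RNAdjuvant, or from mice left untreated, with 3 biological replicates in each of the 4 groups and 1 Affymetrix array each. The labels give the dose as 25 mg, a unit in doubt here and possibly a misprint for micrograms. RNAdjuvant pairs a long non-coding RNA with a positively charged carrier peptide and is used as an adjuvant. Untreated mice were the only controls, so effects of the needle, the volume and the carrier cannot be told apart from those of the RNA. The labels name no animal age, body site, array batch or genetic modification. The 6 keratinocyte markers, a check of the skin label, had sums of 14.06 to 14.31, 14.03 to 14.20 and 14.00 to 14.07 at the 3 times, against 14.22 to 14.30 in untreated skin (log2 of summed intensity).

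In the classical model of T cell activation, Cd80 and Cd86 on antigen-presenting cells bind Cd28 to give the second signal beside the antigen receptor, and bind Ctla4, with higher affinity, to restrain it. Cd274 (PD-L1) and Pdcd1lg2 (PD-L2) bind Pdcd1 (PD-1) on activated T cells and dampen them; Cd274 is known to be induced by interferons on many cell types, Pdcd1lg2 mainly on dendritic cells and macrophages. Icosl is the ligand of Icos, Cd276 (B7-H3) is a B7 relative found on many non-immune cells, and Lag3 and Havcr2 (TIM-3) are inhibitory receptors of T and natural killer cells.

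Cd274 and Pdcd1lg2 follow each other among the measured genes of mouse chromosome 19. Cd274 rose at 6 h while Pdcd1lg2 passed the test at 24 h and not at 6 h, so the sequences around their starts are given here. They are taken from RefSeq (GRCm38.p6), 250 bases before to 50 bases after the start, 5′ to 3′. Capitals mark a match to an interferon regulatory factor core, GAAANNGAA on either strand, a pattern that was added after the Cd274 sequence had been read.
Cd274 promoter, chr19:29367188-29367487, plus strand: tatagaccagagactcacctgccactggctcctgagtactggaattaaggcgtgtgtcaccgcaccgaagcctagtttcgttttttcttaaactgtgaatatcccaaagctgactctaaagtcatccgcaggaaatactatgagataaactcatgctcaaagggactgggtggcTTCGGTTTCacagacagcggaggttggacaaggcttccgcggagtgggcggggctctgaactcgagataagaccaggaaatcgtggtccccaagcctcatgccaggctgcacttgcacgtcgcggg
Pdcd1lg2 promoter, chr19:29410669-29410968, plus strand: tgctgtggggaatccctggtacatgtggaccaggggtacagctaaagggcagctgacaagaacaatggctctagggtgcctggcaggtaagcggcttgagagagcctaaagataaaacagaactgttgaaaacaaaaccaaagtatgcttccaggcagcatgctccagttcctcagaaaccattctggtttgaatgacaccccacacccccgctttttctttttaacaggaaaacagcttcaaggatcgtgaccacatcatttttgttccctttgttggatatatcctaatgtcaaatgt

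The match in the Cd274 window, TTCGGTTTC, lies 76 to 68 bases before the start, and the Pdcd1lg2 window has none. A sequence was at hand for 8 of the 10 genes, and not for Cd86 and Lag3, which both rose at 6 h. Among the 8, Ctla4 has the other match (TTCAGTTTC), and Ctla4 did not pass the test at any time. Of all 32851 windows of this length, 8.6% hold the pattern. The longer GAAANNGAAA, a core of the interferon-stimulated response element that contains the shorter pattern, was in 0 of the 8 windows and in 3.4% of all windows. The STAT pattern TTCNNNGAA (8.3% of all windows) and the NF-kB-like GGGNNTTTCC (1.6%), both searched on either strand, were also in 0 of the 8. A missing match says only that these letters are not in the window.

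The values are log2 intensities as the authors normalized them, and each probe set is compared with itself across samples. A gene counted as changed where its adjusted p was under 0.05 in the limma fit over all 19938 genes. Of the 12 libraries, 1.5 h replicate 1 and 6 h replicate 1 stood apart in lymph node genes: the lymph node vessel gene Glycam1 measured 11.38 and 10.88 in them and 3.87 to 4.46 in the other 10 libraries, and the B cell gene Cd79b measured 7.80 and 7.29 against 4.42 to 5.27. The slow muscle gene Myl2 measured 10.56 and 10.43 in 1.5 h replicates 1 and 2 and 10.57 and 9.33 in 24 h replicates 1 and 3, against 4.29 to 6.88 in the other 8 libraries; 0 of 4 skeletal muscle markers were called at any time (limma, with 2, 0 and 0 at an unadjusted p under 0.05), and the part of muscle in the results was not tested. Without both libraries that carry lymph node genes the same members were called at 6 h (3) and at 24 h (3), and 0 at 1.5 h. Markers of glandular epithelium, which can come with mammary tissue under the skin, had a summed level (log2 of the summed intensities of 4 genes) of 9.75 to 11.12 at 1.5 h, 7.36 to 10.91 at 6 h and 9.70 to 10.32 at 24 h, against 7.64 to 7.92 in untreated skin.

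**Figure D1:**
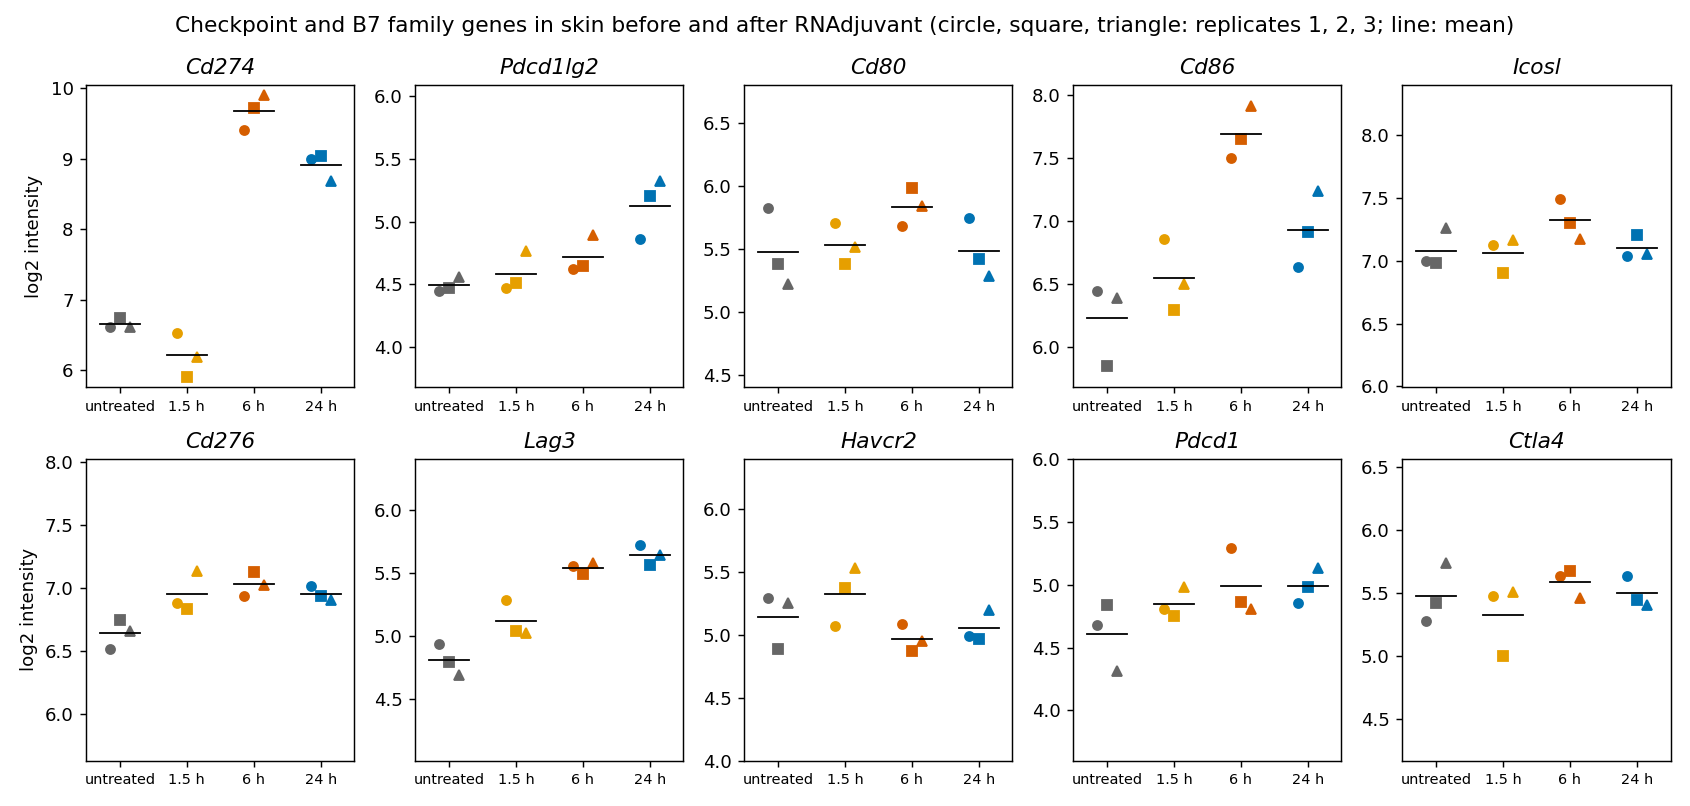
Log2 intensity (vertical axis) of the 10 genes in each of the 12 samples, by group (horizontal axis); circles, squares and triangles are replicates 1, 2 and 3 and lines are group means, and each panel has its own vertical range. Cd274 and Cd86 are highest at 6 h, Lag3 is high at 6 h and 24 h, and Pdcd1lg2 is highest at 24 h.

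After the injection 4 of the 10 genes rose: Cd274 and Lag3 at 6 h and 24 h, Cd86 at 6 h, and Pdcd1lg2 at 24 h. The same 4 passed limma's moderated F test of any difference from untreated skin, as did 11.4% of all genes. Against untreated skin, 3 of 10 were higher and 0 lower at 6 h, where 3.38% of all genes were higher and 2.71% lower, and 3 of 10 were higher and 0 lower at 24 h, where 2.55% were higher and 0.808% lower. At 1.5 h limma called 0 of 10, against 2.20% of all genes in either direction, and 3 of 10 had an unadjusted p under 0.05, against 17.5% of all genes. Counted by groups that did not overlap, 2 members lay wholly above untreated skin and 1 wholly below at 1.5 h (11.8% and 13.3% of all genes), 5 lay above at 6 h (11.4%) and 6 above at 24 h (10.9%). Between times, 3 of 10 were higher at 6 h than at 1.5 h (5.47% of all genes), 1 was lower at 24 h than at 6 h (1.41%) and 3 were higher at 24 h than at 1.5 h (2.24%). The 10 genes had median log2 differences of 0.14 at 1.5 h, 0.37 at 6 h and 0.34 at 24 h, beside 0.02, -0.04 and 0.00 over all genes. At 6 h higher calls made up 55.5% of all calls, a share that became 68.8% with median-centred arrays, 65.1% after quantile normalization and 73.6% after cyclic loess. It was 45.0% with genes of mean under 5 left out, 47.6% with array weights and 49.6% with the glandular marker sum in the fit. At 1.5 h higher calls made up 27.8%, and 66.1% with the glandular marker sum, and at 24 h 76.0%.

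Cd274, the ligand of PD-1 that many cell types make under interferon, had the widest range of the 10 genes. Its log2 intensity (probe set 10462390) was 6.61, 6.74 and 6.62 in untreated skin, 6.53, 5.91 and 6.19 at 1.5 h, 9.41, 9.72 and 9.90 at 6 h, and 9.0, 9.04 and 8.69 at 24 h. From low to high the groups stood in the order 1.5 h, untreated, 24 h and 6 h, and no 2 of them overlapped. At 6 h Cd274 averaged 9.68 ± 0.25, against 6.65 ± 0.07 in untreated skin (SD, n = 3 each), a log2 difference of 3.02 with a standard error of 0.16 (limma, adjusted p = 6.34e-08). It stood at rank 57 of all genes by the size of the rise at that time.

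At 24 h Cd274 averaged 8.91 ± 0.19 (SD, n = 3), still 4.78-fold above untreated skin (log2 difference 2.26, limma adjusted p = 1.45e-06). It was lower at 24 h than at 6 h by a log2 difference of -0.77 (95% interval -1.12 to -0.41, limma adjusted p = 0.0253). That last call was lost without 6 h replicate 2 or 3 or 24 h replicate 1 or 3 (adjusted p = 0.109, 0.0863, 0.0509 and 0.117), with only the groups compared in the fit (0.0506), with values under 5 raised to 5 (0.0711) and with the glandular marker sum in the fit (0.136). The calls against untreated skin at 6 h and 24 h held without each of the 12 libraries, with adjusted p no higher than 1.51e-06 and 2.47e-05.

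At 1.5 h all 3 Cd274 values lay below the 3 untreated ones, which 13.3% of all genes showed. The mean was 6.21 ± 0.31 at 1.5 h, against 6.65 ± 0.07 in untreated skin (SD, n = 3 each). The log2 difference of -0.45 (95% interval -0.80 to -0.09) did not pass (limma adjusted p = 0.175). The 1.5 h library with lymph node genes had the highest of the 3 values, and without it and its 6 h counterpart the difference was -0.61 (adjusted p = 0.0707).

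Pdcd1lg2, the other PD-1 ligand, had a small rise that passed at 24 h. Its log2 intensity (probe set 10462398) was 4.45, 4.47 and 4.56 in untreated skin, 4.47, 4.51 and 4.77 at 1.5 h, 4.62, 4.65 and 4.89 at 6 h, and 4.86, 5.20 and 5.32 at 24 h. Its 6 h values lay above the untreated ones, and the 24 h values overlapped those at 6 h and lay above all untreated and 1.5 h values. At 24 h it averaged 5.13 ± 0.24, against 4.49 ± 0.06 in untreated skin (SD, n = 3 each), a 1.55-fold rise (log2 difference 0.63, limma adjusted p = 0.0161). At 6 h, when its neighbour Cd274 had risen 8.13-fold, the log2 difference of Pdcd1lg2 was 0.23 (95% interval -0.06 to 0.51, adjusted p = 0.32). The difference between 24 h and 6 h itself, 0.41, did not pass (adjusted p = 0.108).

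The Pdcd1lg2 call at 24 h did not survive leaving out either of 2 untreated libraries, replicates 1 and 2 (adjusted p = 0.059 and 0.0669), or either of 2 libraries at 24 h, replicates 2 and 3 (0.058 and 0.0779). It was also lost with values under 5 raised to 5 (log2 difference 0.17, adjusted p = 0.255) and with the glandular marker sum in the fit (0.73, adjusted p = 0.0776). Between 24 h and 1.5 h the log2 difference was 0.54 (adjusted p = 0.0442), a call lost without each of 8 libraries (adjusted p up to 0.17, without 1.5 h replicate 2). It was also lost without both libraries that carry lymph node genes (0.49, adjusted p = 0.114), with the floor (0.17, adjusted p = 0.264), with median-centred arrays, quantile normalization or array weights, and with only the groups compared (adjusted p = 0.0625, 0.0517, 0.0773 and 0.129). Of 9 monocyte and macrophage markers, 3 (Fcgr1, Ccr2 and Adgre1) were called higher at 24 h and 0 lower, with a summed level of 12.06 to 12.41 at 24 h, against 11.48 to 12.06 in untreated skin. The Adgre1 call was lost without each of 6 libraries (up to 0.176, without 24 h replicate 3) and in 4 other settings, and the Ccr2 call in 2 other settings. Cd163 and Mrc1, markers of resident macrophages, did not pass at 24 h (log2 differences -0.70 and -0.52, limma adjusted p = 0.0896 and 0.191). Dendritic cell markers had 0 of 9 higher and 1 lower at 24 h, with sums of 9.69 to 9.84 at 24 h and 9.71 to 10.10 in untreated skin. The part of these cells in the result was not tested. In whole skin a change in the number of cells of a type and a change of RNA per cell cannot be told apart.

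**Figure D2:**
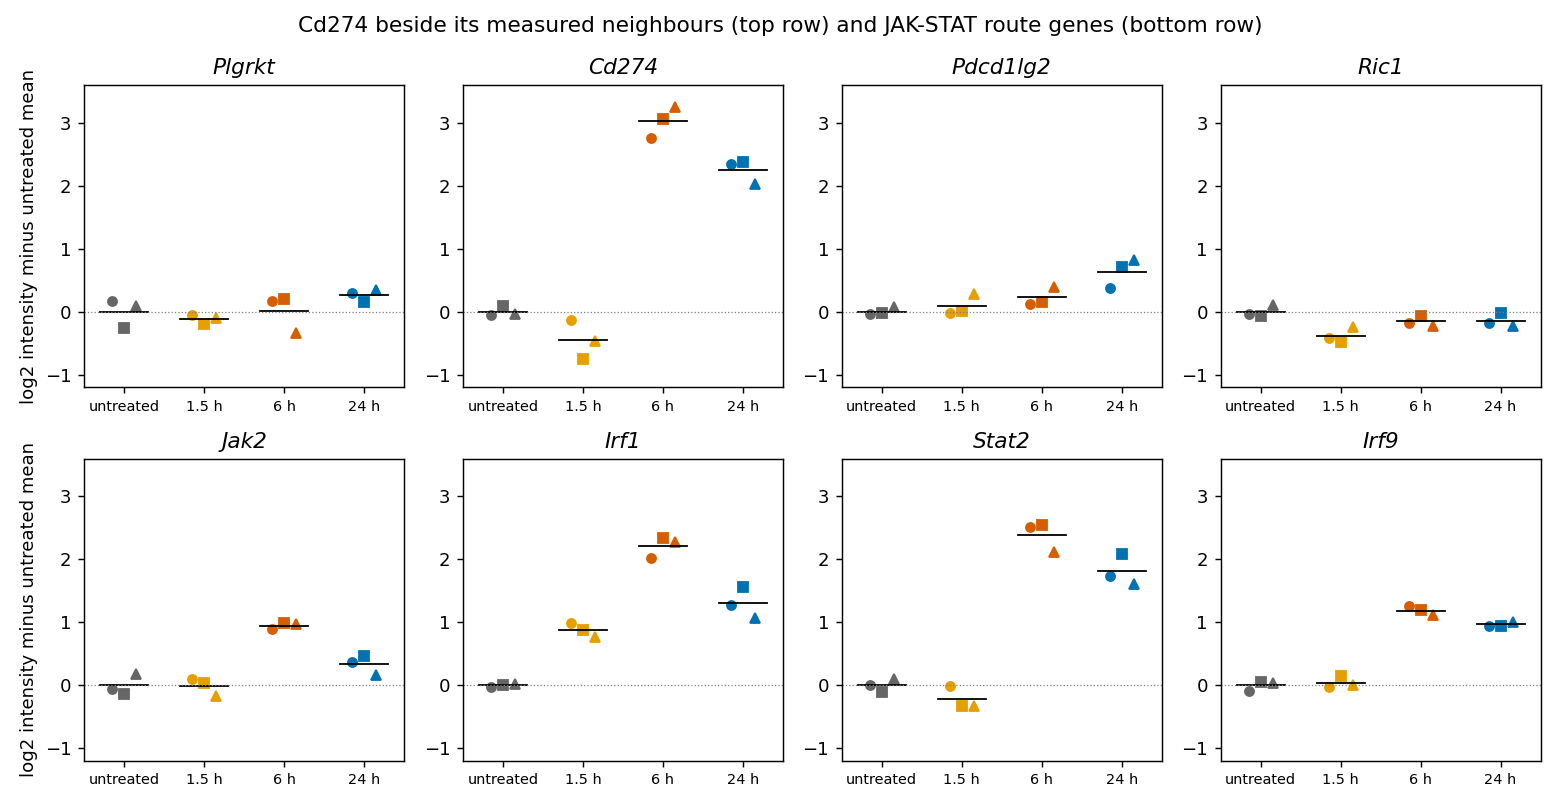
Log2 intensity minus the untreated mean (vertical axis) in each sample by group (horizontal axis), for Cd274 with its measured neighbours on chromosome 19 (top row) and for 4 genes of the interferon JAK-STAT route (bottom row); lines are group means and symbols replicates 1 to 3. Cd274 stands about 3 log2 units above untreated skin at 6 h, while the means of Plgrkt and Ric1, before Cd274 and after Pdcd1lg2, lie between -0.38 and 0.26.

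Of the genes beside Cd274 and Pdcd1lg2, 0 of 3 passed against untreated skin (limma, with 1 at an unadjusted p under 0.05, at 1.5 h). Plgrkt, a plasminogen receptor gene that precedes Cd274 in the RefSeq order, had log2 differences of 0.01 at 6 h and 0.26 at 24 h (limma adjusted p = 0.975 and 0.413). Ric1, a Golgi trafficking gene that follows Pdcd1lg2, had -0.16 and -0.14 (adjusted p = 0.391 and 0.532). Rln1, a relaxin gene before Plgrkt, had 0.36 and 0.40 (adjusted p = 0.303 and 0.335). At 1.5 h the 3 genes had differences of -0.12, -0.38 and 0.30 in the same order (adjusted p = 0.72, 0.0837 and 0.472).

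Over the 12 arrays the genes most like Cd274, among 2193 genes that passed the F test, were Gbp2b, Gbp4, Gbp7, Herc6 and Stat2 (Pearson r = 0.991, 0.991, 0.988, 0.988 and 0.985). The first 3 are interferon-inducible guanylate-binding proteins. Those most like Pdcd1lg2 were Ly6i, Klri2, Klre1, H2-Q2 and Vmn2r90 (r = 0.936, 0.912, 0.910, 0.910 and 0.908), of which Klri2 and Klre1 encode lectin-like receptors of natural killer cells. These correlations describe arrays that share the same 4 groups.

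**Figure D3:**
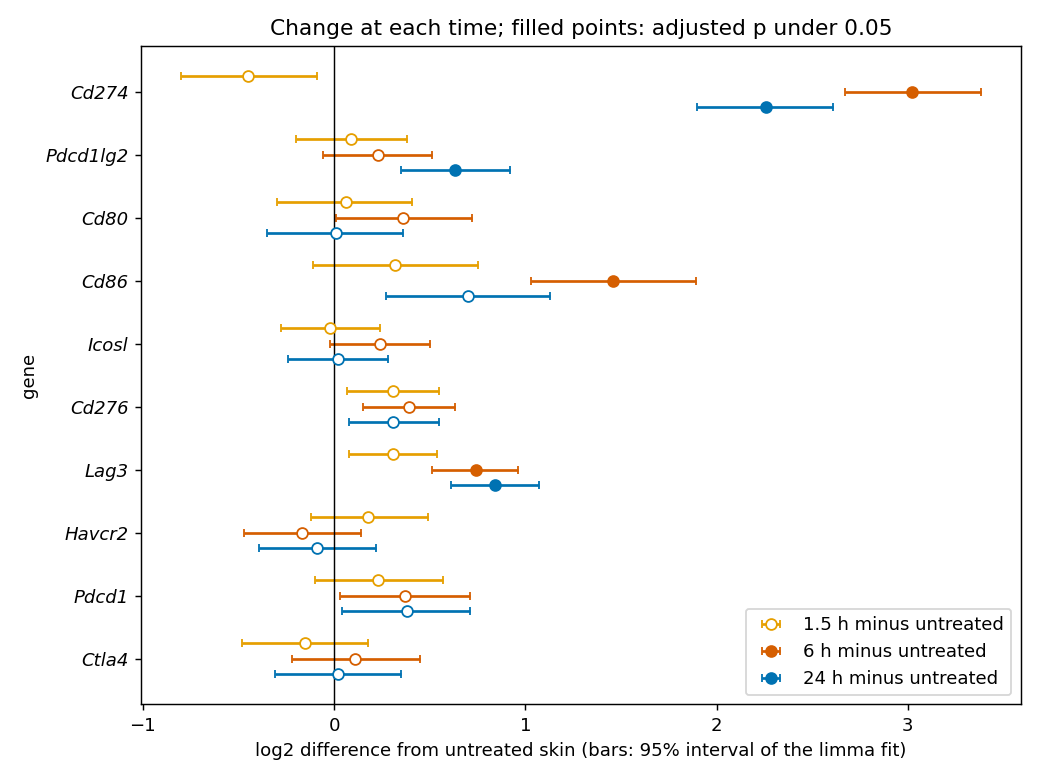
Log2 difference from untreated skin (horizontal axis) of each gene (vertical axis) at 1.5 h, 6 h and 24 h, with the 95% interval of the limma fit; filled points passed an adjusted p of 0.05. Filled points are those of Cd274 and Lag3 at 6 h and 24 h, Cd86 at 6 h and Pdcd1lg2 at 24 h, and every one lies to the right of 0.

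Of the ligands of Cd28 and Ctla4, Cd86 rose at 6 h and Cd80 did not pass at any time. Cd86 (probe set 10439312) measured 6.44, 5.85 and 6.39 in untreated skin, 6.86, 6.29 and 6.50 at 1.5 h, 7.50, 7.65 and 7.91 at 6 h, and 6.63, 6.91 and 7.24 at 24 h. All 6 h values lay above every other value of the gene. The 1.5 h values overlapped the untreated ones (log2 difference 0.32, limma adjusted p = 0.432). It averaged 7.69 ± 0.21 at 6 h, against 6.23 ± 0.33 in untreated skin (SD, n = 3 each), a 2.75-fold rise (log2 difference 1.46, limma adjusted p = 0.000416). Against 1.5 h, where it averaged 6.55 ± 0.29, it was 2.2-fold higher at 6 h (adjusted p = 0.00325). Both calls held without each of the 12 libraries.

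By 24 h Cd86 averaged 6.93 ± 0.31 (SD, n = 3). The 24 h values still lay above the untreated ones, as for 10.9% of all genes, but the log2 difference of 0.70 (95% interval 0.27 to 1.13) did not pass (limma adjusted p = 0.0817). The difference between 24 h and 6 h, -0.76, missed the threshold as well (adjusted p = 0.0567), and it passed in 11 of 24 alternative settings, among them quantile normalization (adjusted p = 0.0378) and the fit with the replicate number as a block (adjusted p = 0.0477). At 6 h 0 of 9 dendritic cell markers and 0 of 3 Langerhans cell markers were called (limma, 2 and 0 at an unadjusted p under 0.05). The summed dendritic cell level was 9.80 to 10.20 at 6 h, against 9.71 to 10.10 in untreated skin. At 6 h the 9 monocyte and macrophage markers had 1 called higher and 1 lower, with a median log2 difference of -0.05. Their summed level was 11.69 to 12.26 at 6 h, against 11.48 to 12.06 in untreated skin. The higher one was Fcgr1, an Fc receptor of these cells (8.88-fold). The lower one was Cd163, a scavenger receptor of resident macrophages (log2 difference -0.77, limma adjusted p = 0.0437). The Cd163 call was lost without each of 9 libraries (up to 0.169, without untreated replicate 1). The part of these cells was not tested.

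Cd80 (probe set 10435712) measured 5.82, 5.38 and 5.22 in untreated skin, 5.70, 5.38 and 5.51 at 1.5 h, 5.68, 5.98 and 5.84 at 6 h, and 5.74, 5.42 and 5.28 at 24 h, so that its 4 groups overlapped. The log2 difference at 6 h was 0.36 (95% interval 0.01 to 0.72, limma adjusted p = 0.207), beside 0.06 at 1.5 h and 0.01 at 24 h (adjusted p = 0.893 and 0.989). The second probe set of the gene, 10435704, gave 0.09 at 6 h (adjusted p = 0.78) and its largest difference, 0.38, at 1.5 h (adjusted p = 0.306), so the probe sets peaked at different times and neither passed against untreated skin. The genes most like Cd86 over the 12 arrays were Mcoln2, Sppl2a, B4galt5, Slc28a2 and Gch1 (r = 0.956, 0.955, 0.954, 0.951 and 0.950).

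The genes beside Cd86 did not pass against untreated skin. Casr and Stfa3 before Cd86, and Ildr1 and Slc15a2 after it, had log2 differences of 0.24, 0.41, 0.16 and -0.24 at 6 h (limma adjusted p = 0.443, 0.395, 0.464 and 0.284). Stfa3, a stefin gene, was 2.36-fold higher at 6 h than at 1.5 h (adjusted p = 0.0144). Beside Cd80, Popdc2, Timmdc1 and Poglut1 did not pass against untreated skin. Pla1a, a phospholipase gene, was 1.73-fold higher at 1.5 h and 1.67-fold higher at 24 h (adjusted p = 0.0424 and 0.0447), calls lost without each of 6 and 7 libraries (adjusted p up to 0.157 and 0.15, both without untreated replicate 2).

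The remaining ligands, Icosl and Cd276, did not pass at any time. Icosl, the ligand of the T cell costimulator Icos, measured 7.0, 6.98 and 7.26 in untreated skin, 7.12, 6.90 and 7.16 at 1.5 h, 7.49, 7.30 and 7.17 at 6 h, and 7.04, 7.20 and 7.05 at 24 h. Each treated group overlapped the untreated one. Its widest difference from untreated skin was 0.24 at 6 h (95% interval -0.02 to 0.50, limma adjusted p = 0.254). An Icosl rise above 0.50 log2 units at 6 h lies outside that interval.

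Cd276, the B7 relative of non-immune cells, measured 6.52, 6.75 and 6.66 in untreated skin, 6.88, 6.84 and 7.14 at 1.5 h, 6.94, 7.13 and 7.03 at 6 h, and 7.02, 6.94 and 6.91 at 24 h. All 9 treated values lay above all untreated ones. The log2 differences were 0.31, 0.39 and 0.31 at 1.5 h, 6 h and 24 h (limma adjusted p = 0.16, 0.0543 and 0.159), and the F test did not pass (adjusted p = 0.0865). The 6 h difference passed in 9 of 24 alternative settings, with the lowest adjusted p, 0.0189, after cyclic loess (difference 0.51).

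Among the 4 receptors Lag3 rose and the other 3 did not pass. Lag3 binds MHC class II and restrains T cells; natural killer cells carry it too. It measured 4.93, 4.79 and 4.69 in untreated skin, 5.28, 5.04 and 5.02 at 1.5 h, 5.55, 5.49 and 5.58 at 6 h, and 5.72, 5.56 and 5.64 at 24 h (probe set 10547906). The untreated, 1.5 h and 6 h values did not overlap, and those at 6 h and 24 h did. Lag3 averaged 5.54 ± 0.05 at 6 h and 5.64 ± 0.08 at 24 h, against 4.80 ± 0.12 in untreated skin (SD, n = 3 each). The rises were 1.67-fold and 1.79-fold (limma adjusted p = 0.000614 and 0.000256), and both held without each of the 12 libraries.

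At 1.5 h Lag3 averaged 5.11 ± 0.14 (SD, n = 3), a log2 difference of 0.31 from untreated skin that did not pass (limma adjusted p = 0.147). Lag3 was higher at 6 h and at 24 h than at 1.5 h by 0.43 and 0.53 (adjusted p = 0.0201 and 0.013), calls lost without each of 4 and 3 libraries, up to adjusted p = 0.0761 and 0.0739, both without 1.5 h replicate 2. The first was also lost with the glandular marker sum in the fit (adjusted p = 0.0595) and the second with only the groups compared (0.0607). The genes most like Lag3 were Ccl5, Nmi, Irf7, Saa3 and Rtp4 (r = 0.978, 0.964, 0.962, 0.955 and 0.955).

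Some natural killer cell markers were higher at 6 h and 24 h, as Lag3 was. Of 8 natural killer cell markers 2 were higher at 6 h and 6 at 24 h, and their summed level was 8.48 to 8.66 at 6 h and 10.47 to 10.83 at 24 h, against 7.60 to 7.70 in untreated skin. The 2 at 6 h were the granzyme genes Gzma and Gzmb (log2 differences 1.72 and 2.14). At 24 h these genes measured 8.41 to 9.12 and 9.56 to 9.71, and they made up most of the sum. Ncr1, an activating receptor of natural killer cells, was 3.95-fold higher at 24 h, and Gzmb, a granzyme, 30.6-fold. When 24 h was compared with 6 h, 5 of the 8 natural killer cell markers were called higher (median log2 difference 1.13). Lag3 did not pass in that comparison (log2 difference 0.10, limma adjusted p = 0.629). Of 11 T cell markers 0 were called at any of the 3 times in limma (0, 0 and 1 at an unadjusted p under 0.05 at 1.5 h, 6 h and 24 h), with sums of 9.61 to 9.97 at 24 h and 9.50 to 9.64 in untreated skin. The 24 h values of 4 of the 11, Cd3d, Cd8a, Cd8b1 and Cd2, lay wholly above the untreated ones, as for 10.9% of all genes. Their log2 differences were 0.46, 0.64, 0.50 and 0.73 (limma adjusted p = 0.635, 0.408, 0.635 and 0.242), and the median of the list was 0.24. The part of natural killer and T cells in the level of Lag3 was not tested.

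**Figure D4:**
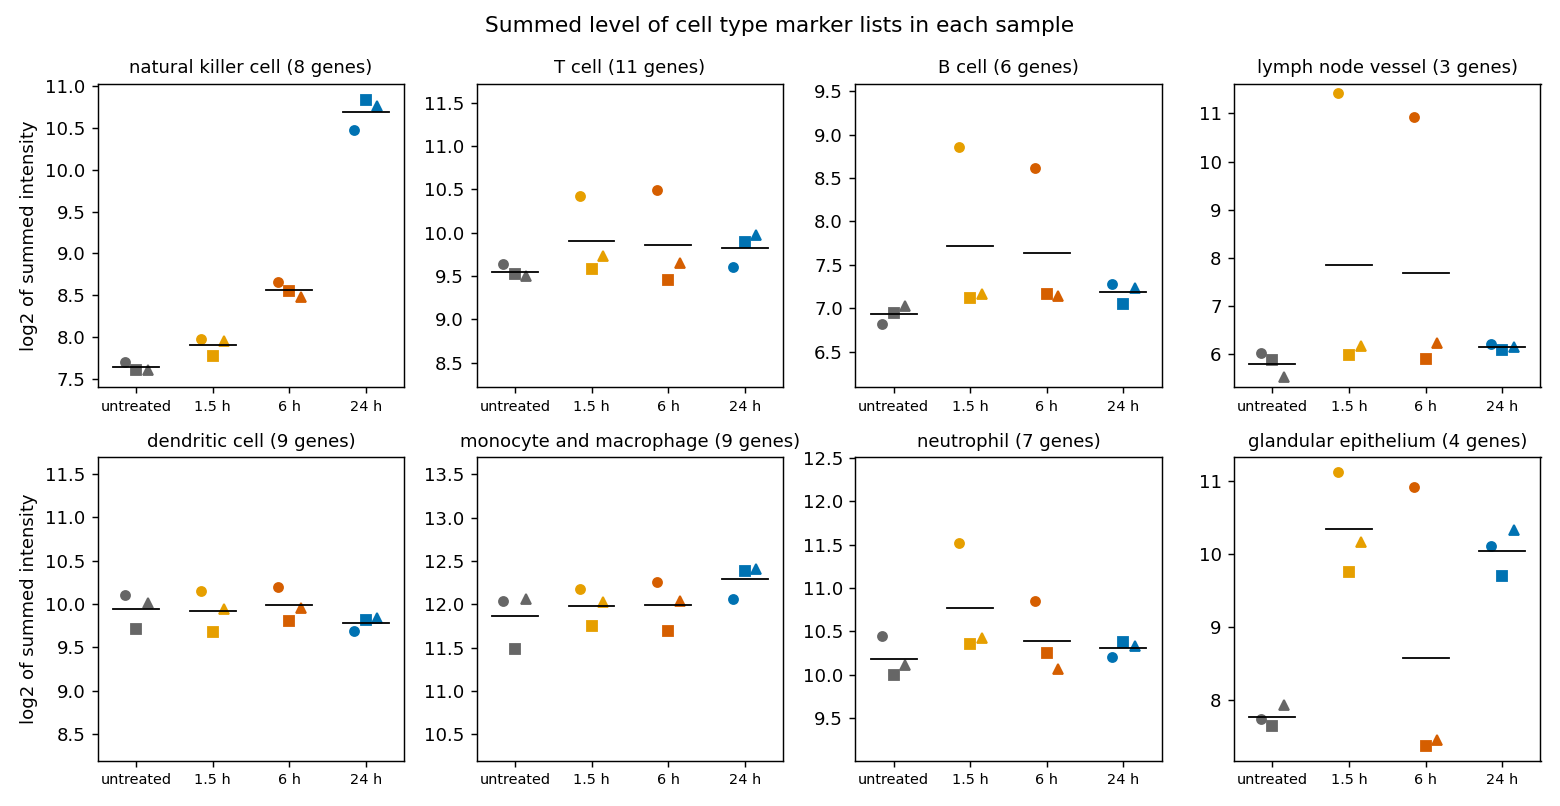
Log2 of the summed intensity (vertical axis) of 8 cell type marker lists in each sample by group (horizontal axis); lines are group means, and circles, squares and triangles are replicates 1, 2 and 3. The natural killer cell sum is 10.47 to 10.83 at 24 h, mostly from the granzyme genes Gzma and Gzmb. The circles at 1.5 h and 6 h stand above the other samples in the B cell and lymph node vessel panels.

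Pdcd1 (PD-1), the receptor of both PD-L1 and PD-L2, measured 4.68, 4.84 and 4.31 in untreated skin, 4.81, 4.75 and 4.98 at 1.5 h, 5.29, 4.86 and 4.81 at 6 h, and 4.85, 4.98 and 5.13 at 24 h. Its highest value was in the 6 h library with lymph node genes. Its 24 h values lay just above the untreated ones, and its 6 h values overlapped them. The log2 differences were 0.23 at 1.5 h (limma adjusted p = 0.467), 0.37 at 6 h and 0.38 at 24 h (95% intervals 0.03 to 0.71 and 0.04 to 0.71 for the last 2, adjusted p = 0.177 and 0.243), and 0.22 at 6 h without both libraries that carry lymph node genes.

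Ctla4, the inhibitory receptor of Cd80 and Cd86, measured 5.28, 5.42 and 5.74 in untreated skin, 5.48, 5.0 and 5.51 at 1.5 h, 5.64, 5.68 and 5.46 at 6 h, and 5.64, 5.45 and 5.41 at 24 h, and its 4 groups overlapped. Its differences from untreated skin were -0.15, 0.11 and 0.02 at 1.5 h, 6 h and 24 h (limma adjusted p = 0.658, 0.677 and 0.971), and at 24 h the interval was -0.31 to 0.35. Its neighbours in gene order, the T cell costimulators Cd28 and Icos, had differences of 0.41 and 0.01 at 24 h (adjusted p = 0.515 and 0.982). The genes beyond them, Raph1 and Pard3b, had -0.41 and -0.46 (adjusted p = 0.121 and 0.177).

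Havcr2 (TIM-3), an inhibitory receptor of T cells and myeloid cells, measured 5.29, 4.89 and 5.25 in untreated skin, 5.07, 5.37 and 5.53 at 1.5 h, 5.09, 4.87 and 4.95 at 6 h, and 4.99, 4.97 and 5.20 at 24 h. Its differences were 0.18, -0.17 and -0.09 (limma adjusted p = 0.529, 0.487 and 0.802), and each treated group overlapped the untreated one.

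Ligands and partners of Havcr2 and Lag3, with the TIM family genes Timd2, Timd4 and Havcr1, made a list of 10 genes. All were measured, and 2 were called higher at 6 h. Lgals9, which encodes galectin-9, a binding partner of TIM-3, was 3.77-fold higher at 6 h and 2.95-fold higher at 24 h (limma adjusted p = 3.52e-06 and 4.26e-05). Lgals9 measured 10.77, 10.60 and 10.47 on the log2 scale at 6 h, then 10.26, 10.35 and 10.19 at 24 h, against 8.69, 8.50 and 8.91 in untreated skin. Timd4, a TIM family receptor of phosphatidylserine on macrophages, was 3.32-fold and 2.61-fold higher (adjusted p = 0.00498 and 0.0292), the second call being lost without each of 4 libraries (up to 0.132, without 24 h replicate 3). Clec4g, a lectin that can bind Lag3, was lower at 1.5 h and 24 h by log2 differences of -0.67 and -0.55 (adjusted p = 0.0166 and 0.0217), lost without each of 2 and 4 libraries (up to 0.0821 and 0.106, both without untreated replicate 3). In all, 0 of these 10 genes were higher and 1 lower at 1.5 h, 2 higher and 0 lower at 6 h, and 2 higher and 1 lower at 24 h. Their median log2 differences were 0.20, -0.09 and 0.20 at 1.5 h, 6 h and 24 h, beside 0.02, -0.04 and 0.00 over all genes.

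Of 21 further B7, CD28, nectin and butyrophilin-like genes measured, 1 was higher at 1.5 h, 2 at 6 h and 2 at 24 h, and 0 were lower (limma, with 6, 4 and 9 at an unadjusted p under 0.05 in either direction). The medians of the list were 0.01, 0.13 and 0.31 at the 3 times. Vtcn1 (B7-H4), an inhibitory B7 relative of epithelia, was 1.77-fold higher at 1.5 h (adjusted p = 0.0188, lost without each of 4 libraries, up to 0.0842 without untreated replicate 3, and without both libraries that carry lymph node genes). Glandular markers were high in the same group, as given above, and with their summed level in the fit the call was lost (0.54, adjusted p = 0.294). That fit separates glandular tissue and treatment poorly, since the glandular sums at 1.5 h all lay above those of untreated skin. The part of glandular tissue was not tested. Cd226, an activating receptor of natural killer and T cells, was 2.39-fold higher at 6 h (adjusted p = 0.00799), and its ligand gene Pvr was 1.54-fold higher at 24 h (adjusted p = 0.0273, lost without each of 4 libraries, up to 0.099 without untreated replicate 3). Tnfrsf14, the receptor that binds Btla, was 1.47-fold and 1.67-fold higher at 6 h and 24 h (adjusted p = 0.046 and 0.0136), lost without each of 9 libraries and without 1, up to 0.153 and 0.0668 without untreated replicate 3. The 6 h call was also lost with the replicate block, without both libraries that carry lymph node genes and with the floor (up to 0.112), and the 24 h call with the floor.

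Of 14 measured genes of the interferon route known to drive Cd274, 1 was higher at 1.5 h, 6 at 6 h and 4 at 24 h, and 0 were lower. Their median log2 differences were 0.03, 0.41 and 0.29. Irf1, a transcription factor that binds the Cd274 promoter in other systems, was 1.84-fold higher at 1.5 h (limma adjusted p = 0.00552), when Cd274 did not pass. At 6 h Irf1, Stat2 and Irf9, parts of the interferon transcription machinery, were 4.62-, 5.23- and 2.28-fold higher, and at 24 h 2.47-, 3.5- and 1.96-fold (adjusted p up to 3.04e-05). Jak2, a kinase of the interferon gamma receptor, was 1.93-fold higher at 6 h, and Cmtm6, which keeps PD-L1 on the cell surface, 1.42-fold (adjusted p = 0.000186 and 0.01); both were chosen after their values were seen. Ifng, the gene of interferon gamma, had log2 differences of 0.51 and 0.39 at 6 h and 24 h (adjusted p = 0.0869 and 0.249).

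Of 10 measured genes that signal downstream of these receptors, 0 were called at 1.5 h (limma, 1 at an unadjusted p under 0.05), 1 was higher at 6 h and 4 at 24 h. The medians were 0.07, 0.17 and 0.53. Sh2d1a, an adaptor of T and natural killer cells, Vav1, a guanine exchange factor of leukocytes, and Ptpn6 (SHP-1), a phosphatase recruited by inhibitory receptors, were 2.32-, 1.72- and 1.6-fold higher at 24 h (adjusted p = 0.0152, 0.0104 and 0.0448). Vav1 kept its call without each of the 12 libraries; Sh2d1a and Ptpn6 lost theirs without each of 3 and 8 (up to 0.0668 and 0.176, both without 24 h replicate 3). Pik3cd, a leukocyte phosphoinositide kinase, was 1.54-fold higher at 6 h (adjusted p = 0.0358, lost without each of 5 libraries, up to 0.129 without untreated replicate 3).

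A further list of 13 genes mixed inhibitory and exhaustion-linked genes of T cells with the costimulatory receptors Tnfrsf9, Tnfrsf18, Tnfrsf4 and Cd27. Of these 13, 1 was lower at 1.5 h and 1 higher at 6 h and at 24 h. The medians of the mixed list were 0.19, 0.26 and 0.18. Il10, an anti-inflammatory cytokine, was 5.33-fold higher at 6 h and 2.15-fold at 24 h (limma adjusted p = 1.91e-06 and 0.00433), with 6.72, 6.34 and 6.29 at 6 h and 4.80, 5.41 and 5.22 at 24 h, against 4.12, 3.72 and 4.27 in untreated skin. With values under 5 raised to 5 the log2 differences of 2.41 and 1.11 became 1.45 and 0.21, and the 24 h call was lost (adjusted p = 0.534). Nt5e (CD73), which makes adenosine, was lower at 1.5 h by a log2 difference of -0.61 (adjusted p = 0.0412, lost without each of 7 libraries, up to 0.14 without 1.5 h replicate 1). Among 4 markers of regulatory T cells, which carry much Ctla4, 0 were higher at the 3 times and Ikzf2 was lower at 24 h (-0.49, adjusted p = 0.0334, lost without each of 5 libraries, up to 0.128 without 24 h replicate 3).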

How the data were processed

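The deposited values are log2 intensities of 35556 probe sets; the submitters' processing notes name RMA and Affymetrix Expression Console 1.1 as what the authors used. The genome build is not given in the sources used here. Of the probe sets, 23410 were in the platform annotation, 21789 with 1 gene symbol, 1621 with several and not used to name a gene, and 12146 not listed. For each of 19938 genes the probe set with the highest mean stood for the gene. Array medians lay between 5.53 and 5.76. No detection p-values were analysed here, so no value was called absent. The precision is limited by 3 arrays a group, and an exact permutation test of 3 against 3 cannot go below p = 0.1.

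All groups were fitted in 1 model (limma 3.58.1, lmFit then eBayes, R 4.3.3); residual degrees of freedom were 8 and the prior added 5.24. P-values are two-sided and adjusted by Benjamini-Hochberg over all genes within each of 6 comparisons. The steps were tested on simulated data. No filter on low values was used. The alternatives were 12 fits without 1 library each, the replicate number as a block, both libraries that carry lymph node genes left out, 3 scalings, a filter and a floor at 5, other variance models, array weights, other probe set rules and fits of only the groups compared; a fit with glandular markers was added after the data were seen. Deviations of same-numbered samples correlated at r = -0.22 to 0.33, highest between the replicates 1 of 1.5 h and 6 h, which both carry lymph node genes; not every pair passed 0.1, so the numbers were not taken as pairs.

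The members, lists and tests were chosen with earlier results of these data known. Named beside the members are, from each list, the 3 largest changes called at each time and the largest the other way, the 2 measured genes on either side of Cd274, Cd80, Cd86 and Ctla4, and the 5 genes of highest correlation with each member that passed the F test, predicted genes skipped; marker genes named singly, such as Ncr1, Gzmb, Fcgr1, Cd163, Mrc1, Myl2 and Ikzf2, were chosen after their values were seen. Neighbours come from RefSeq gene order in GRCm38.p6. Some genes of the further lists are not reported here.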

Additional observations from a re-analysis of the deposited data

Results flagged for a closer look

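The size of the response differed between times, by the test of one treated group against another in the same limma fit, for 4 of the 10 genes. Cd274 differed by 3.47 log2 units between 6 h and 1.5 h (adjusted p = 3.7e-08), by -0.77 between 24 h and 6 h (adjusted p = 0.0253) and by 2.70 between 24 h and 1.5 h (adjusted p = 4.51e-07). Cd86 differed by 1.14 between 6 h and 1.5 h (adjusted p = 0.00325). Lag3 differed by 0.43 between 6 h and 1.5 h and by 0.53 between 24 h and 1.5 h (adjusted p = 0.0201 and 0.013). Pdcd1lg2 differed by 0.54 between 24 h and 1.5 h (adjusted p = 0.0442), a call lost without each of 8 libraries and in 6 other settings. Groups of 3 were not searched for single outlying samples.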

How the results depend on the processing

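Over the 24 alternative settings the number of the 10 genes called was 0 in each at 1.5 h, 3 or 4 at 6 h and 2 or 3 at 24 h against untreated skin, and 3 or 4 by the F test, for which 23 settings gave a value. Between 24 h and 6 h the count was 1, 0 to 2 without 1 library each, 2 with the replicate block, without both libraries that carry lymph node genes, with arrays centred, quantile normalization, cyclic loess, the filter, trend and robust variances or array weights, and 0 with the floor, with only the groups compared or with glandular markers in the fit. Between 24 h and 1.5 h it was 3, 1 to 3 without 1 library each, 1 with only the groups compared, and 2 without both libraries that carry lymph node genes, with arrays centred, quantile normalization, the filter (which leaves Pdcd1lg2 out), the floor or array weights. The replicate block changed no other count of these genes. The cause of these shifts was not tested.

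The signs that turned were those of differences that did not pass. Without 1 library each, Cd80 lay between -0.07 and 0.23 at 1.5 h, -0.12 and 0.18 at 24 h and -0.18 and 0.05 between 24 h and 1.5 h, Icosl between -0.07 and 0.07 at 1.5 h, -0.04 and 0.11 at 24 h and -0.04 and 0.09 between 24 h and 1.5 h, Ctla4 between -0.25 and 0.02 at 1.5 h and -0.08 and 0.15 at 24 h, and Pdcd1 between -0.01 and 0.23 between 6 h and 1.5 h. Without both libraries that carry lymph node genes Cd80 had -0.03 at 1.5 h and 0.03 between 24 h and 1.5 h, and Pdcd1 -0.03 between 6 h and 1.5 h. Cd80 had -0.01 at 24 h after quantile normalization and 0.05 between 24 h and 1.5 h with array weights. With glandular markers Pdcd1 had -0.04 at 1.5 h, and Icosl and Ctla4 -0.15 and -0.10 at 24 h. Genes called over the whole array numbered 439 at 1.5 h (97 to 597 without 1 library each, 56 with glandular markers, 121 with the floor, 696 with array weights), 1215 at 6 h (712 to 1364) and 670 at 24 h (423 to 756, 314 with glandular markers). With glandular markers in the fit, the calls of Vtcn1, Nt5e, Clec4g and Pla1a at 1.5 h, of Tnfrsf14 at 6 h, of Lag3 between 6 h and 1.5 h, and of Pvr, Tnfrsf14, Timd4, Clec4g, Pla1a, Sh2d1a, Vav1, Ptpn6, Ikzf2 and Il10 at 24 h were lost. So were those of the cell type markers Klrd1, Eomes, Adgre1 and Ccr2 at 24 h. At 1.5 h and 24 h the glandular sums all lay above those of untreated skin, so that fit separates glandular tissue and treatment poorly. The cause of the lost calls was not tested.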
